A study of Schmidtea mediterranea with 58 samples.

Results

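Of 28742 planarian transcripts, 123 declined at wounds through 48 hours post amputation (hpa) in control animals and kept at least a set part of that decline after *equinox* RNAi. Members were chosen from CPM (a count divided by the total of its library and scaled to a common total), using the median of each group on the log2(CPM + 1) scale. The rule asked for a control median of 5 CPM or more at 0 hpa, which 11714 transcripts met. In 565 of these the control medians peaked at 0 hpa and reached their minimum at 48 hpa, and in 279 that decline was 0.6 or more on the log2 scale. The decline in *equinox* RNAi animals was at least 0.5 times the control decline in 123 of the 279, fewer than the limit of 200 members. The other 156 late fallers, with a smaller decline in *equinox* RNAi, are the closest set to compare with.

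The libraries were made from anterior-facing wounds of tail fragments of *Schmidtea mediterranea*, clonal asexual strain CIW4, a flatworm that regenerates from small body pieces. *equinox* RNAi animals had been fed double-stranded RNA (dsRNA) against *equinox* while controls received dsRNA for the nematode gene *unc-22* (*C. elegans*), in 8 feedings for every library. Wounds of both treatments were taken at 6 times (0, 3, 6, 16, 24 or 48 hpa), with 5 libraries per group except for 4 of *equinox* RNAi at 0 hpa and 4 of control at 48 hpa. Each library pooled 5 wounds of 1 clonal strain, and nothing in the labels names separate cultures, so p-values measure the spread between these pools.

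Total counts ranged from 1312330 to 38053378 (median 15070578), and no member had a median count under 42 in any group. The share of counts on mitochondrial transcripts lay between 0.264% and 0.652%. One control library at 6 hpa, replicate 5, stood apart, with a median correlation to its group of 0.936, where the next lowest library had 0.965. The targeted transcript, dd_20318 (*equinox*), went against the label in 6 of the 9 libraries labelled *equinox* RNAi at 0 and 3 hpa, where it lay above every control library of that time. These 6 held 38.3 and 27.2 CPM of it at 0 hpa, and 9.90, 32.7, 30.4 and 7.50 CPM at 3 hpa. The highest control library of any time held 17.7 CPM. They are called against their label for this transcript alone. Whether reads from the fed dsRNA or an exchange of libraries raised it was not tested. dd_20318 lay below every control library in 3 of 5 *equinox* RNAi libraries at 6 hpa and in 15 of 15 from 16 hpa on. Replicate 1 of *equinox* RNAi carries a time in its title that differs from its time field in 5 libraries (all times from 3 hpa), and the title was followed. At 3 hpa 4 of the 5 *equinox* RNAi libraries are against their label, so the counts of members called against 3 hpa, and the values of members named for them, are also given without these libraries or with 6 hpa in place of 3 hpa.

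Planarian regeneration depends on neoblasts, the dividing cells of the adult that include pluripotent stem cells, and on muscle, which carries much of the positional information. An injury first sets off a wound response shared by all injuries, and loss of tissue is followed by a longer response with sustained wound-induced expression and neoblast accumulation. In RNA from whole wound tissue fewer cells of a type and less RNA per cell cannot be told apart. The transcripts carry only assembly numbers (dd_ and a number) in the counts. The supplementary tables used for homologue names covered 1335 transcripts, 1114 of them with a human name, and hold 6 members, of which 5 have a human name. The tissue could not be checked against defining markers by name beyond lists built from those homologues.

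What the rule used is described first, with no test. The change in *equinox* RNAi at 48 against 0 hpa ranged over the 123 members from -1.86 to -0.34 on the log2 scale, with a median of -0.62. The change in control ranged from -2.87 to -0.60, with a median of -0.94. In 53 members the control decline was at least 1 on the log2 scale, and in 5 it was at least 2. The ratio of the *equinox* RNAi decline to the control decline had a median of 0.65, and in 10 members it was 1 or more. Every *equinox* RNAi library at 48 hpa lay below every *equinox* RNAi library at 0 hpa in 65 members, where 3.61% of the 20129 transcripts tested did so. The same held for the control libraries in 107 members, against 9.62% of transcripts tested. The rule selected for both, so these counts only describe how clean the declines were.

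Levels spanned a wide range. The control median at 0 hpa ran from 7.80 to 4164 CPM, with a median over members of 46.8 CPM. Together the members held 1.16 ± 0.18% of counts at 48 hpa in *equinox* RNAi (SD, n = 5), against 1.89 ± 0.10% at 0 hpa (SD, n = 4). In control libraries they held 0.962 ± 0.010% at 48 hpa (SD, n = 4), against 1.97 ± 0.06% at 0 hpa (SD, n = 5). A single transcript, dd_131, held between 14.7% and 26.0% of the members' counts in each library. *equinox* RNAi libraries at 0 hpa were lower than control by median in 94 of 123 members, and at 48 hpa in 51. Both of these times entered the rule, and it asked for a high control value at 0 hpa.

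The edges of the rule were close. On the size of the control decline, dd_456 (-0.61) and dd_2925 (-0.60) were just inside, and dd_2318 (-0.59996) and dd_1584 (-0.598) just outside. On the ratio, dd_9118 (0.501) and dd_4695 (0.501) were inside, and dd_14195 (0.497) and dd_1706 (0.498) outside. On the control level at 0 hpa, dd_16362 (7.80 CPM) and dd_14267 (8.85 CPM) were the lowest inside, while dd_10973 (4.99 CPM) and dd_9787 (3.81 CPM) fell below the floor. Membership moved with single libraries. Leaving out 1 library of the 0 and 48 hpa groups at a time gave between 81 members (without *equinox* RNAi 0 hpa replicate 2) and 189 (without control 48 hpa replicate 2). With the libraries against their label left out, 124 transcripts met the rule, 110 of them among the 123. With CPM rescaled by TMM factors, 171 met it, 98 of them shared, and with group means in place of medians 110 met it, 64 of them shared.

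**Figure D1:**
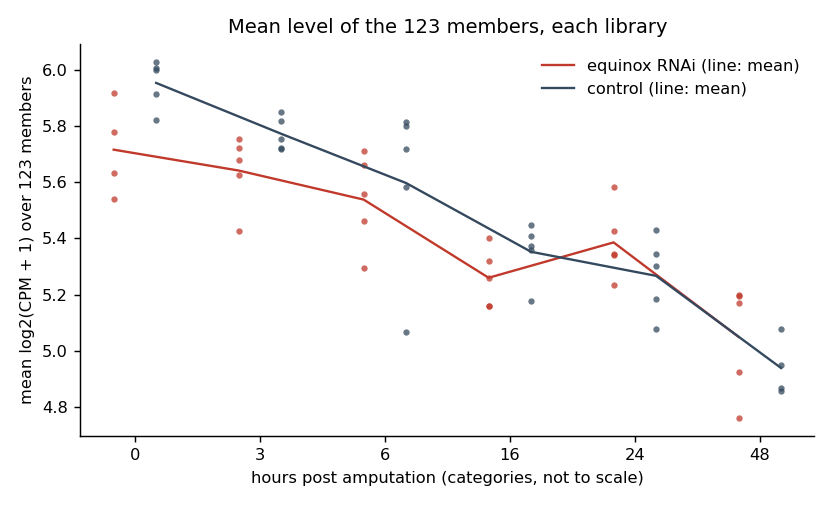
Mean log2(CPM + 1) over the 123 members (vertical axis) in each library, by hours post amputation (horizontal axis, not to scale), with *equinox* RNAi in red and control in dark blue. Points are libraries and lines join group means. In *equinox* RNAi the mean was 5.39 at 24 hpa, above 5.26 at 16 hpa and 5.05 at 48 hpa, and 1 control library at 6 hpa lay at 5.07.

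The mean over members did not decline evenly. In *equinox* RNAi it was 5.72 ± 0.17 at 0 hpa (SD, n = 4). It was 5.64 ± 0.13, 5.54 ± 0.17, 5.26 ± 0.10, 5.39 ± 0.13 and 5.05 ± 0.20 over the 5 later times in order (SD, n = 5 each). In control it was 5.95 ± 0.09, 5.77 ± 0.06, 5.60 ± 0.31, 5.35 ± 0.10 and 5.27 ± 0.14 at the first 5 times (SD, n = 5 each) and 4.94 ± 0.10 at 48 hpa (SD, n = 4). The plot of the mean by library shows the control library at 6 hpa that stood apart at 5.07, below the other 4 of that group. By median over members, control animals had passed 57.6% of their decline at 16 hpa and 71.6% at 24 hpa.

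The *equinox* RNAi libraries at 3, 6, 16 and 24 hpa took no part in choosing the members. Between them, 63 of 123 members fell at 16 against 3 hpa and 0 rose, where 5.63% of the 20129 transcripts tested fell and 4.97% rose (adjusted p below 0.05, edgeR quasi-likelihood test with Benjamini-Hochberg adjustment over all transcripts tested). The median log2 fold change was -0.43 over members, -0.25 over the other 156 late fallers, of which 52 fell and 2 rose, and -0.01 over all transcripts. At 24 against 3 hpa, 26 members fell and 0 rose, against 3.55% and 2.98% of transcripts tested, with a median of -0.25 over members. The other late fallers had the same median there, -0.25, with 36 of 156 falling and 1 rising, and all transcripts had a median of -0.02. In 24 members both falls passed the test, and in 65 at least 1 did, counts for which the share of all transcripts was not taken.

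The libraries did not overlap in many of these. Every *equinox* RNAi library at 16 hpa lay below every one at 3 hpa in 45 members, against 4.13% of transcripts tested, and at 24 below 3 hpa in 21, against 3.06%. These counts include the 3 hpa libraries against their label. With the 3 hpa libraries against their label left out, 1 library remained at 3 hpa, whose spread was taken to be that of the other groups, and 21 members fell at 16 hpa and 7 at 24 hpa. The medians then were -0.44 and -0.29 over members, and 0.02 and 0.01 over all transcripts. With 6 hpa as the early time, 47 fell at 16 hpa and 16 at 24 hpa, with medians of -0.32 and -0.19 and 0 rising. Over all transcripts the medians with 6 hpa were 0.00 and -0.01. How many of all transcripts were called under either replacement is not given here, so these counts have no share to be set against. The calls at 16 hpa thus ranged from 21 to 67 of 123 over the alternatives tried, and those at 24 hpa from 7 to 29.

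**Figure D2:**
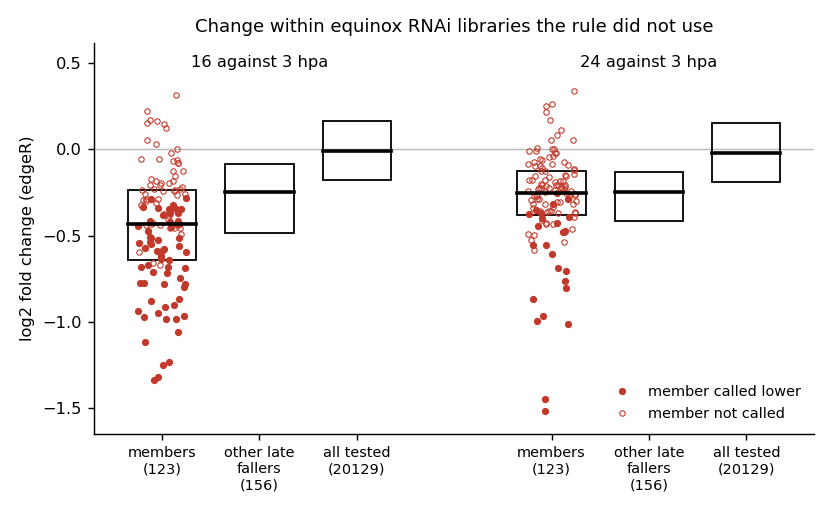
Log2 fold change within *equinox* RNAi (vertical axis) at 16 against 3 hpa (left) and 24 against 3 hpa (right). Boxes give the middle 50% and the median of the 123 members, the other 156 late fallers and all 20129 transcripts tested, and points are members, filled where called lower. The members' medians were -0.43 and -0.25, against -0.01 and -0.02 over all transcripts.

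dd_11947, which has no homologue name here, had the largest control decline of all members (-2.87 on the log2 scale). In *equinox* RNAi it measured 3.67, 4.13, 4.88, 5.39 and 3.51 CPM at 24 hpa, against 9.97, 10.03, 12.8, 12.6 and 13.7 CPM at 3 hpa. All 5 libraries at 24 hpa lay below all 5 at 3 hpa, and the log2 fold change was -1.45 ± 0.16 (SE, adjusted p = 5.6e-10, edgeR).

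dd_14927 gave the largest fall at 24 against 3 hpa, -1.52 ± 0.19 (SE, adjusted p = 3.0e-08, edgeR). Its *equinox* RNAi libraries measured 1.55, 3.42, 4.27, 3.61 and 3.51 CPM at 24 hpa, against 10.6, 9.67, 6.34, 8.72 and 10.5 CPM at 3 hpa. The groups did not overlap, although the 3 hpa library at 6.34 CPM sat nearer to those of 24 hpa than the rest. Its levels are among the lowest of the members.

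dd_1473 showed the same course at a higher level. It measured 198, 263, 213, 189 and 189 CPM at 24 hpa in *equinox* RNAi, against 391.7, 389, 310, 433 and 376 CPM at 3 hpa. The fall was -0.87 ± 0.11 (SE, adjusted p = 7.3e-08, edgeR), and the treatments did not pass the test of a difference at 3, 6, 16 or 24 hpa. At 48 hpa its *equinox* RNAi libraries measured 111, 118, 198, 119 and 112 CPM, against 75.4, 67.8, 85.2 and 76.1 CPM in control libraries.

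dd_5175 fell by 1.02 ± 0.10 on the log2 scale at 24 against 3 hpa (SE, adjusted p = 1.6e-10, edgeR). Its *equinox* RNAi libraries held 62.6, 81.5, 79.2, 70.2 and 81.8 CPM at 24 hpa, against 122, 157, 134, 164 and 169 CPM at 3 hpa. Of the members with the largest control decline, dd_7587 also fell at 24 against 3 hpa in *equinox* RNAi, by 0.97 ± 0.15 (SE, adjusted p = 2.9e-06, edgeR), from libraries that did not overlap.

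Without the 3 hpa libraries against their label, the changes at 24 hpa were -1.60 for dd_11947, -1.502 for dd_14927, -1.12 for dd_1473, -1.20 for dd_5175 and -0.997 for dd_7587, and each passed the test (edgeR, adjusted p between 1.5e-07 and 0.028). With 6 hpa in place of 3 hpa they were -1.09, -1.20, -0.67, -0.82 and -0.78 in the same order, and each again passed (edgeR, adjusted p between 9.3e-08 and 3.4e-04). The falls of these 5 members were thus called with all libraries and under both replacements of the early time.

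dd_3638 had the largest ratio, with a decline in *equinox* RNAi 1.69 times that of control. Its course was uneven, with *equinox* RNAi medians of 44.6, 38.3, 24.4, 35.1, 18.0 and 13.8 CPM over the 6 times in order, so that 16 hpa lay above 6 hpa. The control medians followed the same shape, with 47.9, 40.03, 28.5, 40.2, 25.7 and 24.1 CPM at those times. The fall at 24 against 16 hpa passed the test in both treatments, with -0.80 ± 0.16 in *equinox* RNAi (SE, adjusted p = 0.0011) and -0.57 ± 0.16 in control (SE, adjusted p = 0.025, edgeR). Its change at 24 against 3 hpa was -0.99 ± 0.16 (SE, adjusted p = 1.0e-05, edgeR). It was -0.68 without the 3 hpa libraries against their label and -0.32 with 6 hpa in place of 3 hpa, and passed in neither (adjusted p = 0.43 and 0.41, edgeR).

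Among the most abundant members the changes at 24 against 3 hpa were smaller or did not pass the test. dd_351, the second most abundant member, fell by 0.55 ± 0.16 at 24 against 3 hpa in *equinox* RNAi (SE, adjusted p = 0.020, edgeR). With 6 hpa as the early time its change was -0.27, and without the 3 hpa libraries against their label -0.75, and neither passed (adjusted p = 0.53 and 0.28, edgeR). dd_185, at a control median of 741 CPM at 0 hpa, spread too widely for a call, with 222, 558, 315, 285 and 513 CPM at 24 hpa in *equinox* RNAi, against 698, 574, 221, 366 and 409 CPM at 3 hpa. Those groups overlapped, and the log2 fold change was -0.27 ± 0.30 (SE, adjusted p = 0.72, edgeR). dd_41, another abundant member, was called at 16 against 3 hpa (-0.58 ± 0.20, SE, adjusted p = 0.049) but not without the filter on low counts (adjusted p = 0.098, edgeR). With 6 hpa in place of 3 hpa its change was -0.555 and did not pass (adjusted p = 0.10, edgeR). Without the 3 hpa libraries against their label its change was -0.78. That value rests on the 1 library left at 3 hpa, so it is given as a size alone and not as a call.

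**Figure D3:**
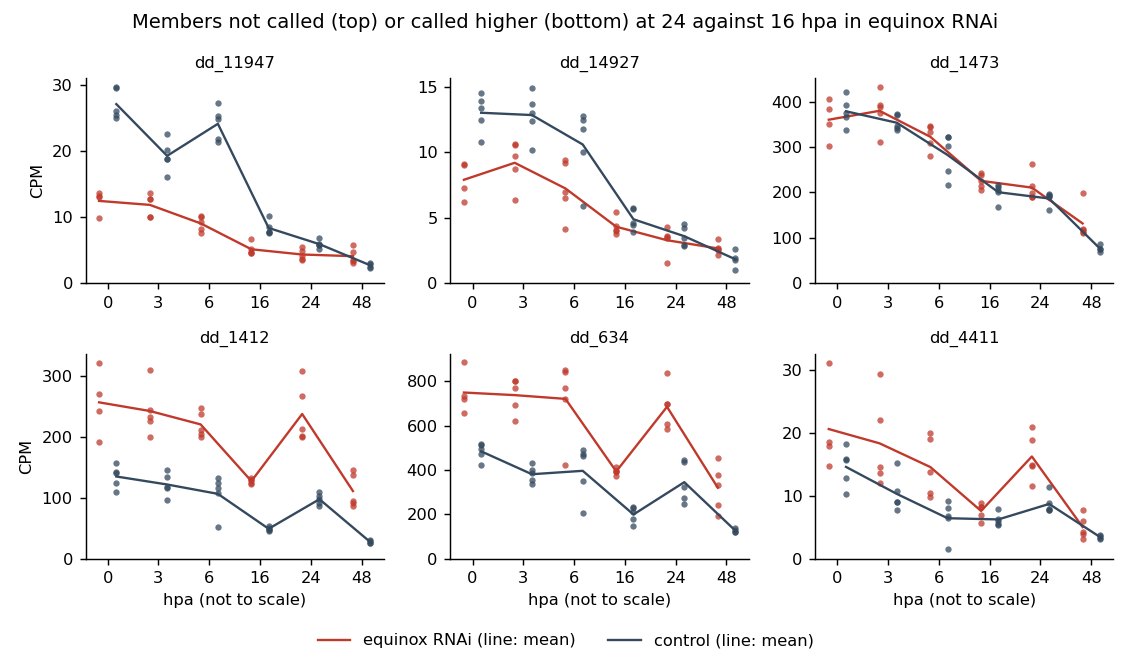
CPM (vertical axes, from 0) of 6 of the 8 members with the largest control declines in each library, by hours post amputation (horizontal axes, not to scale), with *equinox* RNAi in red and control in dark blue, and lines join group means. In *equinox* RNAi dd_11947, dd_14927 and dd_1473 were lower at 16, 24 and 48 hpa than at 3 hpa, while dd_1412, dd_634 and dd_4411 were lower at 16 hpa than at 3 and 24 hpa.

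In *equinox* RNAi, 19 members rose and 2 fell at 24 against 16 hpa (edgeR, adjusted p below 0.05), where 0.760% of transcripts tested rose and 1.44% fell. Of the other 156 late fallers, 8 rose (5.13%) and 3 fell (1.92%). This comparison was added after the values had been seen, though its libraries took no part in the rule. The 2 members that fell were dd_5175 and dd_3638. All 19 that rose had fallen at 16 against 3 hpa, and 0 of them were called at 24 against 3 hpa. Without the 3 hpa libraries against their label, the fall at 16 hpa of those given below no longer passed (dd_1412 -0.75, dd_634 -0.93, dd_131 -0.74, dd_465 -0.99, dd_4411 -0.79, edgeR, adjusted p between 0.10 and 0.41), and with 6 hpa in place of 3 hpa it passed in each. In each of the 19, every library at 24 hpa lay above every library at 16 hpa, as in 21 members and 1.49% of transcripts tested. The rises ran from 0.34 to 1.16 on the log2 scale, with a median of 0.78. Because the 19 were picked by their *equinox* RNAi libraries at 16 and 24 hpa, what they show at these times is a description.

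The rule left free the order of 16 and 24 hpa in control libraries. Over all 123 members the median log2 fold change at 24 against 16 hpa was 0.07 in *equinox* RNAi, with 76 above 0 and 47 below, and -0.06 in control, with 49 above 0 and 74 below. All 20129 transcripts tested had medians of -0.01 in *equinox* RNAi and -0.02 in control, with 9864 and 9617 above 0. The other 156 late fallers had medians of 0.01 and -0.11, with 81 and 51 above 0. In control 7 members rose at 24 against 16 hpa and 4 fell, where 1.57% of transcripts tested rose and 2.33% fell, and all 7 were among the 19. Of the other 156 late fallers, 6 rose (3.85%) and 12 fell (7.69%) in control. In 7 members, also among the 19, every control library at 24 hpa lay above every one at 16 hpa, against 2.22% of transcripts tested. Of the 19, 18 were above 0 in control, with a median of 0.50. Whether the rise differed between treatments was not tested. By group median, 34 of 123 members were higher at 24 than at 16 hpa in both treatments and 53 were lower in both. The share of all transcripts was not taken for these counts. When the 5 libraries with differing times were placed by their time field, 1 member was called at 24 against 16 hpa in *equinox* RNAi, and it was lower. With these 5 libraries left out, 13 rose. The share of all transcripts called under either choice is not given here.

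**Figure D4:**
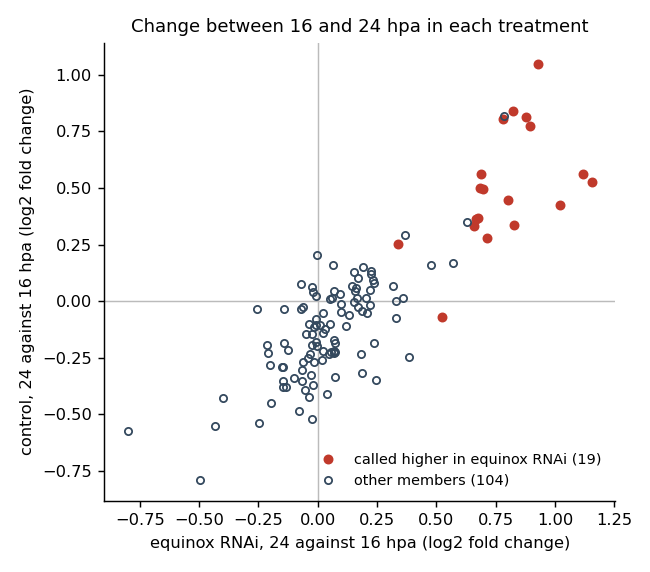
Log2 fold change at 24 against 16 hpa in *equinox* RNAi (horizontal axis) and in control (vertical axis) for each member, filled where called higher in *equinox* RNAi. The 19 filled members lie between 0.34 and 1.16 in *equinox* RNAi, and 18 of them lie above 0 in control.

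dd_1412 was the clearest case. In *equinox* RNAi it measured 268, 308, 201, 213 and 202 CPM at 24 hpa, against 123, 129, 133, 124 and 129 CPM at 16 hpa. In control it measured 97.4, 103, 109, 92.4 and 86.7 CPM at 24 hpa, against 51.2, 49.4, 45.3, 53.1 and 46.8 CPM at 16 hpa. No libraries overlapped in either treatment, and the rises were 0.93 ± 0.16 in *equinox* RNAi (SE, adjusted p = 1.0e-04) and 1.05 ± 0.16 in control (SE, adjusted p = 1.0e-05, edgeR). By 48 hpa it had declined again, to 86.1, 95.4, 137, 145 and 92.3 CPM in *equinox* RNAi and 28.4, 26.1, 25.05 and 30.2 CPM in control.

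dd_634 repeated the pattern. Its *equinox* RNAi libraries held 586, 837, 697, 606 and 698 CPM at 24 hpa, against 390, 414, 397, 395 and 371 CPM at 16 hpa. The control libraries held 275, 437, 443, 324 and 245 CPM at 24 hpa, against 231, 212, 146, 228 and 178 CPM at 16 hpa. The rises were 0.82 ± 0.17 in *equinox* RNAi (SE, adjusted p = 0.0021) and 0.84 ± 0.17 in control (SE, adjusted p = 0.0014, edgeR).

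dd_131, the most abundant member, dipped by a smaller amount. It measured 3850, 4006, 3707, 3876 and 3623 CPM at 24 hpa in *equinox* RNAi, against 2567, 2563, 2326, 2227 and 2481 CPM at 16 hpa. The rise was 0.68 ± 0.14 in *equinox* RNAi (SE, adjusted p = 0.0024, edgeR), and in control it was 0.37 ± 0.14 and did not pass the test (SE, adjusted p = 0.13, edgeR). Its control libraries overlapped, with 3172, 3745, 3826, 2640 and 2779 CPM at 24 hpa, against 2771, 2688, 2085, 2917 and 2564 CPM at 16 hpa.

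The largest rise was that of dd_465, at 1.16 ± 0.25 in *equinox* RNAi (SE, adjusted p = 0.0034, edgeR). It measured 40.2, 25.8, 23.5, 32.7 and 18.9 CPM at 24 hpa, against 15.9, 14.2, 7.69, 10.8 and 16.3 CPM at 16 hpa. dd_4411 rose by 1.12 ± 0.24 (SE, adjusted p = 0.0030, edgeR), with 14.8, 20.9, 14.9, 11.6 and 18.9 CPM at 24 hpa, against 8.17, 8.19, 8.76, 6.99 and 5.74 CPM at 16 hpa. The libraries of both times stayed apart in dd_465 and in dd_4411. dd_190 and dd_456 rose by 0.83 ± 0.22 and 0.34 ± 0.08 (SE, adjusted p = 0.030 and 0.0099, edgeR). Without the 5 libraries of differing times neither passed (adjusted p = 0.16 and 0.10, edgeR).

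The 19 members were more abundant than the rest, with a median control level at 0 hpa of 105 CPM, against 44.2 CPM for the other 104, and they held between 32.6% and 53.7% of the members' counts in each library. Against 0 hpa of their own treatment, their median in *equinox* RNAi was -0.06, -0.12, -0.88, -0.20 and -1.06 over the 5 later times in order. In control it was -0.27, -0.24, -0.72, -0.39 and -1.13 at those times. The other 104 members had medians of -0.07, -0.16, -0.38, -0.35 and -0.57 in *equinox* RNAi and of -0.15, -0.24, -0.50, -0.66 and -0.90 in control. The 2 sets were split by the 24 against 16 hpa test, so these values are a description.

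Members differed between treatments in both directions at each time, and the share over all transcripts varied more between the times than the members' counts did. At 3 hpa 7 members were lower and 18 higher in *equinox* RNAi, where 5.55% of transcripts tested were lower and 5.78% higher. At 6 hpa 11 were lower and 15 higher, against 3.96% and 3.70%. At 16 hpa 8 were lower and 7 higher, against 0.298% and 0.308%. At 24 hpa 4 were lower and 12 higher, against 0.671% and 0.576% (edgeR, adjusted p below 0.05 throughout). The share of members lower at 3 hpa was thus close to that of all transcripts. The share of members higher at 3 hpa was 14.6%, above that of all transcripts. At 6 hpa 8.94% of members were lower and 12.2% higher. At 6, 16 and 24 hpa the members' shares were above those of all transcripts in both directions. The same held for the other 156 late fallers. At 3 hpa 8.33% of them were lower and 8.33% higher, at 6 hpa 7.69% and 5.13%, and at 16 hpa 2.56% and 3.21%. At 24 hpa 1.92% of them were lower and 4.49% higher. The control medians at these times entered the rule, which also asked for a minimum control level that not all transcripts tested met. The part of the rule in these shares was not tested.

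Over the 4 times, 14 members were lower at 1 or more, 21 were higher at 1 or more, and 0 were lower at one and higher at another. The share of all transcripts over the 4 times together was not counted, so these numbers only describe the members. The members' median over those times in order was -0.00, -0.11, -0.09 and 0.12, with all transcripts between -0.00 and 0.02. Among the 19 members with the dip, 13, 11, 6 and 9 were higher in *equinox* RNAi over the 4 times in order, and 2 were lower, both at 16 hpa. The 19 were picked by *equinox* RNAi libraries that were low at 16 hpa and high at 24 hpa, so the counts at these times are not independent of that choice. Those 2 were dd_412, which was named after its values were seen, and dd_190.

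The counts and their balance depended on the libraries used. Without the libraries against their label 1 member was lower and 4 were higher at 3 hpa, from 1 remaining *equinox* RNAi library. Fitting only the groups compared gave 20 lower and 21 higher at 3 hpa and 5 lower and 7 higher at 6 hpa. Placing the 5 libraries by their time field gave 20 lower and 21 higher at 3 hpa, 12 lower and 6 higher at 6 hpa, and 4 lower and 2 higher at 24 hpa. Of the members described next, dd_9118 (-2.10, adjusted p = 3.0e-04) and dd_1491 (1.62, adjusted p = 5.0e-05) still differed at 3 hpa without the libraries against their label. There dd_300 (-0.57), dd_101 (-0.23), dd_11947 (-0.38), dd_1412 (0.96), dd_634 (1.12) and dd_131 (0.43) did not pass (edgeR, adjusted p between 0.092 and 0.78). Without the control library that stood apart, 21 members were lower and 14 higher at 6 hpa. The share of all transcripts called under these alternatives is not given here, so the swings cannot be set against it.

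dd_9118 was lowest relative to control at 24 hpa. It measured 3.82, 3.80, 2.96, 2.88 and 3.30 CPM in *equinox* RNAi at 24 hpa, against 9.35, 10.5, 13.9, 11.2 and 13.1 CPM in control. The groups were well separated at each of the 4 times, with log2 fold changes of -1.98 ± 0.18, -2.10 ± 0.18, -1.57 ± 0.17 and -1.80 ± 0.18 in time order (SE, edgeR, adjusted p between 5.4e-13 and 2.7e-09). It was also the member with the smallest ratio inside the rule, and within *equinox* RNAi it did not pass the test at 24 against 3 hpa (-0.50 ± 0.19, SE, adjusted p = 0.10, edgeR).

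dd_300 measured 19.2, 12.2, 12.1, 15.9 and 9.60 CPM in *equinox* RNAi at 24 hpa, against 48.8, 19.9, 36.9, 35.6 and 30.2 CPM in control. All *equinox* RNAi libraries were below all control libraries, the closest being 19.2 and 19.9 CPM, and the difference was -1.30 ± 0.22 (SE, adjusted p = 7.6e-05, edgeR). It was lower at all 4 times, as were dd_9118, dd_101 and dd_7019 (-0.70 ± 0.13 at 24 hpa, SE, adjusted p = 3.0e-04, edgeR), which are the 4 members lower at 24 hpa.

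dd_1491 was the highest member relative to control at 24 hpa. It measured 117, 145, 124, 117 and 119 CPM in *equinox* RNAi at 24 hpa, against 33.8, 53.1, 51.7, 34.6 and 35.4 CPM in control. The groups lay far apart, with a difference of 1.58 ± 0.15 (SE, adjusted p = 4.8e-11, edgeR), and it was higher at 3, 6 and 16 hpa as well. At 0 hpa its *equinox* RNAi libraries already measured 123, 172, 138 and 137 CPM, against 61.7, 54.6, 51.7, 52.3 and 57.8 CPM in control, a time the rule used.

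dd_1412 and dd_634 were likewise higher at all 4 times. At 24 hpa the differences were 1.27 ± 0.16 for dd_1412 (SE, adjusted p = 7.5e-08) and 0.98 ± 0.17 for dd_634 (SE, adjusted p = 2.0e-04, edgeR). dd_131 was higher at 3 hpa (0.44 ± 0.14, SE, adjusted p = 0.036) and at 6 hpa (0.50 ± 0.14, SE, adjusted p = 0.022, edgeR), calls that were lost without 1 of several libraries, such as control 6 hpa replicate 5 (0.38, adjusted p = 0.062). dd_11947 went the other way, lower at 3, 6 and 16 hpa, by most at 6 hpa (-1.35 ± 0.15, SE, adjusted p = 2.6e-09, edgeR). Fitting only the groups compared, its difference at 16 hpa (-0.69) and that of dd_634 at 6 hpa (0.91) did not pass (adjusted p = 0.078 and 0.087, edgeR).

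**Figure D5:**
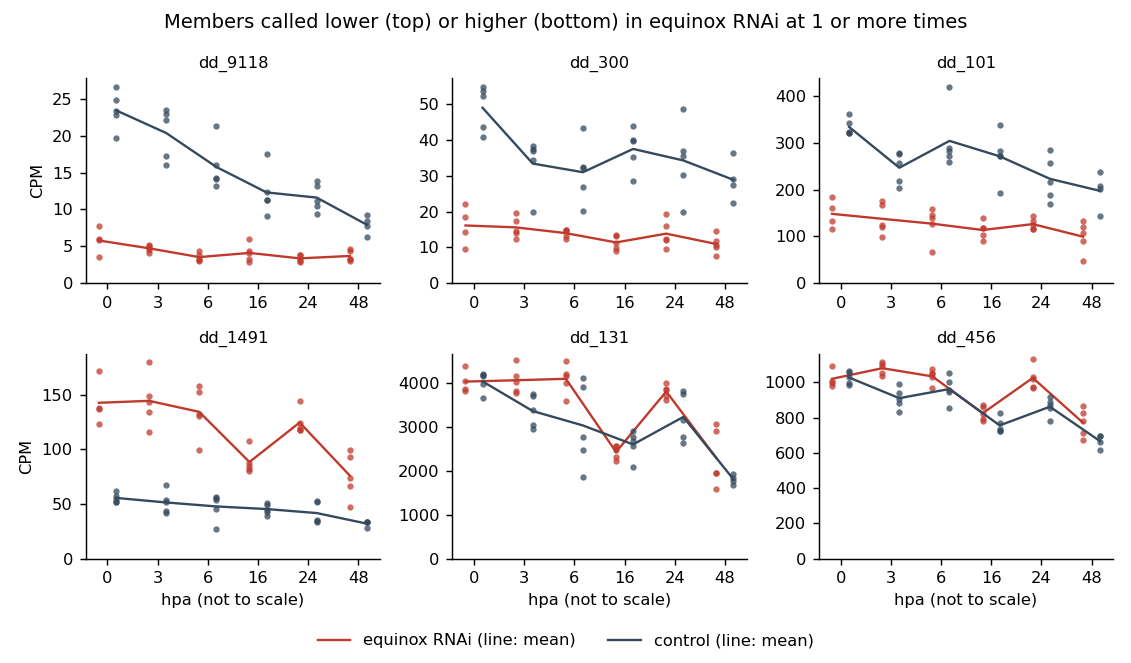
CPM (vertical axes, from 0) of 3 members called lower in *equinox* RNAi (dd_9118, dd_300, dd_101) and 3 called higher at 1 or more times (dd_1491, dd_131, dd_456) in each library, by hours post amputation (horizontal axes, not to scale), with *equinox* RNAi in red and control in dark blue, and lines join group means. The libraries of dd_9118 stay apart at all times, while those of dd_131 overlap at 16 and 24 hpa.

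The change between 3 and 24 hpa was then compared between treatments. By the interaction of RNAi and time, 0 members passed in either direction, where 0.730% of transcripts tested passed (edgeR). At an unadjusted p below 0.05 there were 14 of 123 members, a smaller share than the 4496 of 20129 transcripts tested. DESeq2 called 1 member, dd_1977 (0.60, adjusted p = 0.043), which was named after its values were seen. The members' median was 0.09. A missed threshold does not show that the courses were alike, and the rule held the control medians at both times between those of 0 and 48 hpa.

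Of the 5 members with a human name, dd_1062 (FAIM, in mammals an inhibitor of apoptosis) fell in *equinox* RNAi. It measured 285, 316, 319, 291 and 345 CPM at 16 hpa, against 454, 448, 494, 499 and 536 CPM at 3 hpa. The groups did not overlap, with a fall of 0.69 ± 0.11 on the log2 scale (SE, adjusted p = 1.9e-06, edgeR), and at 24 against 3 hpa it fell by 0.47 ± 0.11 (SE, adjusted p = 0.0017, edgeR). Without the 3 hpa libraries against their label the change at 16 hpa was -0.79 (adjusted p = 0.0083) and that at 24 hpa -0.56, which did not pass (adjusted p = 0.20, edgeR). The treatments did not pass the test of a difference at 3, 6, 16 or 24 hpa.

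dd_101 (SPON1, an F-spondin, a secreted matrix protein that in vertebrates acts on growing axons) was lower in *equinox* RNAi at all 4 times. At 16 hpa it measured 103, 139, 90.0, 117 and 118 CPM in *equinox* RNAi, against 272, 272, 192, 283 and 338 CPM in control. The groups were separate, and the difference was -1.25 ± 0.21 (SE, adjusted p = 1.6e-04, edgeR). At 24 hpa it was -0.83 ± 0.21 (SE, adjusted p = 0.024, edgeR). Without the filter on low counts the differences at 3 and 24 hpa did not pass (adjusted p = 0.055 and 0.054, edgeR). Within *equinox* RNAi the changes at 16 and 24 against 3 hpa did not pass the test.

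The other named members did not pass any test of time or treatment. dd_1083 (SH3D19, a protein with SH3 domains) had a log2 fold change of -0.45 ± 0.17 at 16 against 3 hpa in *equinox* RNAi (SE, adjusted p = 0.079, edgeR). dd_10656 (SLC16A9, of the monocarboxylate transporter family) had -0.23 ± 0.12 (SE, adjusted p = 0.26, edgeR). dd_10824 (MSI2, a Musashi-family RNA-binding protein that in vertebrates controls translation in stem cells) had -0.21 ± 0.17 (SE, adjusted p = 0.59, edgeR).

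Homologue lists placed few members. Of 10 lists, extracellular matrix held 1 member (dd_101) and solute carriers 1 (dd_10656), and the lists for neuronal signalling, motile cilia, muscle contraction, intestine and lysosome, translation, DNA replication and mitosis, Wnt signalling and the TRAF family held 0. At 16 against 3 hpa in *equinox* RNAi, 5.63% of all transcripts tested fell and 4.97% rose. Of 35 extracellular matrix transcripts 5 fell and 1 rose, with a median of -0.12. Of 67 neuronal signalling transcripts 3 fell and 6 rose (median 0.04), of 30 motile cilia transcripts 5 fell and 0 rose (median 0.04), and of 27 for muscle contraction 0 fell and 1 rose (median 0.01). Of 23 intestine and lysosome transcripts 3 fell and 0 rose (median -0.10), and of 9 for DNA replication and mitosis 1 fell and 1 rose (median 0.01). Of 29 solute carriers 3 fell and 3 rose, of 12 TRAF transcripts 2 fell and 0 rose, and of 5 translation and 6 Wnt transcripts 0 were called. The part of a change in cell numbers in the members' decline was not tested, and only 6 of the 123 were in the tables behind the lists. Those tables hold the study's differential expression, in part of *equinox* RNAi against control animals. The lists are therefore not an even sample of all transcripts.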

How the data were processed

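Sequencing gave 50 bp reads. The authors aligned these with bowtie 1.1.2 (1.2 in the submitters' processing notes) against dd_Smed_v6, an assembled transcriptome, used bedtools 2.26.0 for counting, and deposited raw counts per transcript for 58 libraries. All columns of the table matched a library. The lowest chi-square per degree of freedom between 2 libraries of a group was 2.59, so none looked like a repeat sequencing of another in its group. Libraries made from the same RNA, and repeats across groups, were not checked. Each library was treated as 1 replicate. How reads common to near-identical transcripts were assigned was not checked, and no sequence or position is given, because the transcriptome was not used here.

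CPM used the column totals, with a pseudocount of 1 on the log2 scale. Tests used edgeR 4.0.16 in R 4.3.3 (robust quasi-likelihood, TMM), as 1 fit over all groups, on 20129 transcripts kept by filterByExpr with a minimum count of 10, which held at least 99.87% of each library's counts and all 123 members. Transcripts were called at a Benjamini-Hochberg adjusted p below 0.05 over all transcripts tested. On simulated counts for *equinox* RNAi at 24 against 3 hpa (19437 transcripts), the test recovered 40 of 40 transcripts changed by -1 and 23 of 40 changed by -0.6 (log2), with 9 false calls. These counts were 1 draw from means shared by all groups and the fitted spread. Libraries that stood apart or went against their label were not simulated, so the rates need not hold for the real libraries. Alternatives were RLE factors, DESeq2 1.42.0, no filter, only the groups compared, a replicate block, other placements of 5 libraries, and each library left out in turn.

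The members, gene lists and tests were chosen with earlier results of these data known. Members were named by rule: the largest control declines, highest levels, largest falls in *equinox* RNAi, extreme ratios, extreme called differences at 24 hpa, human names and the edges of the rule. Names came from the study's supplementary tables, by blastx, and no values were taken from them.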

Additional observations from a re-analysis of the deposited data

Results flagged for a closer look

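Among the members whose libraries are given above and the members' mean and share, 276 groups of libraries were checked for a library far from the rest of its group, and 18 were found, where chance gives about 1 in 20. In *equinox* RNAi at 0 hpa, dd_11947 measured 9.86 CPM in replicate 1 (others 13.0 to 13.6), dd_3638 53.3 CPM in replicate 2 (others 43.7 to 45.0) and dd_465 17.9 CPM in replicate 3 (others 30.8 to 31.4). At 16 hpa, dd_351 measured 1403 CPM in replicate 5 (others 1096 to 1169) and dd_1491 108 CPM in replicate 2 (others 80.4 to 87.8). At 24 hpa, dd_1491 measured 145 CPM in replicate 2 (others 117 to 124). At 48 hpa, replicate 3 held 198 CPM of dd_1473 (others 111 to 119) and 9.95 CPM of dd_7587 (others 5.86 to 6.67), and replicate 5 held 101 CPM of dd_5175 (others 74.2 to 79.3).

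In control libraries, dd_300 measured 19.8 CPM at 3 hpa in replicate 3 (others 34.4 to 38.4), and at 6 hpa dd_351 measured 2650 CPM in replicate 5 (others 1253 to 1648) and dd_101 419 CPM in replicate 4 (others 259 to 289). At 16 hpa, dd_351 measured 1709 CPM in replicate 5 (others 1138 to 1284) and dd_41 363 CPM in replicate 3 (others 543 to 612). At 24 hpa, replicate 5 held 162 CPM of dd_1473 (others 190 to 196) and 8.67 CPM of dd_7587 (others 7.01 to 7.44). At 48 hpa, dd_1491 measured 27.8 CPM in replicate 4 (others 33.2 to 33.7) and dd_41 320 CPM in replicate 1 (others 448 to 460). Replicate 5 of control at 6 hpa is the library that stood apart, and replicate 3 of control at 3 hpa is the shallowest.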

How the results depend on the processing

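RLE factors and no filter kept every count of members called within 1.5 times its value, and so did DESeq2 except for the interaction (1 member). Without the libraries against their label, added after seeing the data, 7 members were called at 24 against 3 hpa, 21 at 16 against 3 hpa and 5 between treatments at 3 hpa. With 6 hpa in place of 3 hpa, also added, 16 were called at 24 hpa and 1 (dd_11947) by the interaction. Placing the 5 libraries by their time field gave 41 between treatments at 3 hpa, 6 at 24 hpa, 9 by the interaction, 1 at 24 against 16 hpa in *equinox* RNAi and 6 in control, and leaving them out gave 1 by the interaction. Fitting only the groups compared gave 41 between treatments at 3 hpa, 12 at 6 hpa and 1 by the interaction. That member was dd_1977, as it was with DESeq2 and with the 5 libraries left out. Each library left out in turn gave 20 to 27 at 24 against 3 hpa, 50 to 60 at 16 against 3 hpa, 17 to 32, 20 to 35, 13 to 15 and 11 to 15 between treatments at 3, 6, 16 and 24 hpa, 0 to 1 by the interaction, 17 to 21 and 7 to 13 at 24 against 16 hpa in *equinox* RNAi and control (7 without control 16 hpa replicate 3), and 81 to 189 transcripts meeting the rule (185 and 189 without control 48 hpa replicate 1 or 2, and 81 without *equinox* RNAi 0 hpa replicate 2). The cause of these shifts was not tested, beyond there being 1 library left at 3 hpa in the first case. How many of all transcripts were called under each alternative is not given here. Whether the shifts are particular to the members is therefore not shown.

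Of 75 called values of named members, 0 turned direction under any alternative, and of 1333 recomputed values 144 no longer passed. Equal replicate numbers were not taken as pairs (correlations of deviations from -0.71 to 0.77, with some pair under 0.1 in each comparison). Between treatments, every pair was above 0 at 3 hpa (0.040 to 0.235) and at 16 hpa (0.098 to 0.772). At 16 hpa 3 of 5 libraries matched their own number best, so pairing at these times is not excluded. The replicate block gave 29 members at 24 against 3 hpa and 64 at 16 against 3 hpa. Between treatments it gave 25, 26, 16 and 16 at 3, 6, 16 and 24 hpa. No member had a median count under 42. The part of depth in missed calls was not tested.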
